A study of Mus musculus with 12 samples.

Results

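Receptors for the colony-stimulating factors and for a set of cytokines decide which signals tumor-infiltrating myeloid cells can receive. The 10 receptor genes described here were *Csf1r*, *Csf2ra*, *Csf2rb*, *Csf2rb2*, *Csf3r*, *Il4ra*, *Il6ra*, *Il10ra*, *Il10rb* and *Ifngr1*, a set chosen by gene name. Each symbol was matched to 1 Ensembl gene among the 54446 genes in the count tables, and all 10 passed the filter on low counts in every comparison. Cells positive for CD11b, a myeloid integrin, had been sorted from tumors of the mouse colon carcinoma line MC38 in WT mice, which are Ythdf2 f/f animals and for tumor growth were on the C57BL/6J background. The tumors were left untreated (Ctrl) or were irradiated locally with 20 Gy (IR) and collected 3 days later. Cells of several mice made up a pool, and there were 3 pools per condition. From every pool 1 library was made of the lysate (Input, transcript abundance) and 1 of the RNA recovered with an anti-YTHDF2 antibody (IP), which gave 12 libraries. The pools are described as technical replicates, so the errors given here measure the spread between pools and may understate that between mice.

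CSF1R is a receptor tyrosine kinase, the receptor for M-CSF and IL-34, and sustains monocytes and macrophages. The receptors for GM-CSF, G-CSF, IL-4 and IL-6 belong to the class I cytokine receptor family, and those for IL-10 and IFN-γ to class II. Neither family has a kinase of its own, and both signal through JAK kinases bound to their cytoplasmic tails, which phosphorylate STAT proteins. YTHDF2 is a cytoplasmic reader of N6-methyladenosine (m6A) that can bring a bound mRNA to the decay machinery, and the ratio of IP to Input is taken as its binding intensity.

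The libraries held 27852948 to 42382532 counts on genes. The member with the fewest reads, *Ifngr1*, had 984 to 2818 counts per library and the one with the most, *Csf2rb*, 61224 to 91873. In the Ctrl Inputs *Itgam*, which encodes CD11b, had 944 ± 1.39 CPM (SD, n = 3). CPM are counts relative to the total of a library. Markers of T, B and NK cells summed to 11.9 to 23.2 CPM in the Inputs, against 10313 to 13828 CPM for 10 neutrophil markers and 643 to 723 CPM for 10 monocyte and macrophage markers. Sums over different genes do not give shares of cells. In the Ctrl Inputs *S100a9*, *Ltf*, *S100a8* and *Ngp* made up most of the neutrophil sum, with means of 3519, 2487, 2103 and 1789 CPM. *Ly6g* had 10.3 and *Retnlg* 12.2 CPM there, below *Ccr2* (201) and *Ly6c2* (194) of the monocyte and macrophage list. All levels are given as CPM after TMM normalization of all 12 libraries. Differences are log2 fold changes from edgeR's quasi-likelihood test, called at an adjusted p-value under 0.05. Because each test normalized only the libraries it compared, its log2 fold changes differed from those of the CPM values by 0.075 (IP against Input in Ctrl), 0.053 (the same in IR), -0.079 (the Inputs of IR against those of Ctrl) and 0.0095 (the IPs likewise).

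Among the receptor transcripts of unirradiated tumors, those of the GM-CSF and G-CSF receptors were the most abundant. Per kilobase of annotated exon, *Csf2rb* led the Ctrl Inputs with 249 ± 7.24 CPM (SD, n = 3). *Csf2ra* followed with 184 ± 1.51 and *Csf3r* with 141 ± 2.72. *Csf2rb2* (89.3 ± 0.59), *Il10ra* (60.0 ± 2.21) and *Csf1r* (37.0 ± 0.65) came next, each apart from its neighbour in all 3 pools. *Il4ra* (24.9), *Ifngr1* (24.7) and *Il10rb* (23.9 CPM per kilobase) overlapped with their neighbours in that order, and *Il6ra* was lowest with 12.5 ± 0.36. Part of this order depends on the length used. Per kilobase of the representative mRNA, which for *Il6ra* is 3343 bases against 8642 of merged exons, *Il6ra* stood at 32.2 ± 0.93 CPM, above *Il4ra* at 28.5 ± 1.25, and *Il10rb* at 49.2 ± 1.56, above *Csf1r* at 45.5 ± 0.79. The order of *Csf2rb*, *Csf2ra*, *Csf3r*, *Csf2rb2* and *Il10ra* at the top was the same on both scales. *Csf2rb* encodes the common β chain of the GM-CSF, IL-3 and IL-5 receptors and *Csf2ra* the α chain that makes it a GM-CSF receptor. The ratio of β to α chain transcripts per kilobase was 1.35 ± 0.047 in the Ctrl Inputs (SD, n = 3) and 1.34 ± 0.0055 in the IR Inputs. In the YTHDF2 IP of Ctrl the order was another, with *Il10ra* (181 ± 7.87 CPM per kilobase) overlapping *Csf2ra* (170 ± 7.17), and *Il6ra* (74.0 ± 1.22) above *Il4ra*, *Csf2rb2* and *Csf1r*. *Il10rb* and *Ifngr1* were last in it and overlapped. Per kilobase of mRNA the IP order differed, since *Csf2ra* (264 ± 11.1) stood above *Il6ra* (191 ± 3.17) and *Il10ra* (181 ± 7.87), and *Il10rb* (32.4 ± 1.52) above *Csf1r* (26.1 ± 1.10). Comparisons of 1 gene between libraries do not depend on its length.

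**Figure D1:**
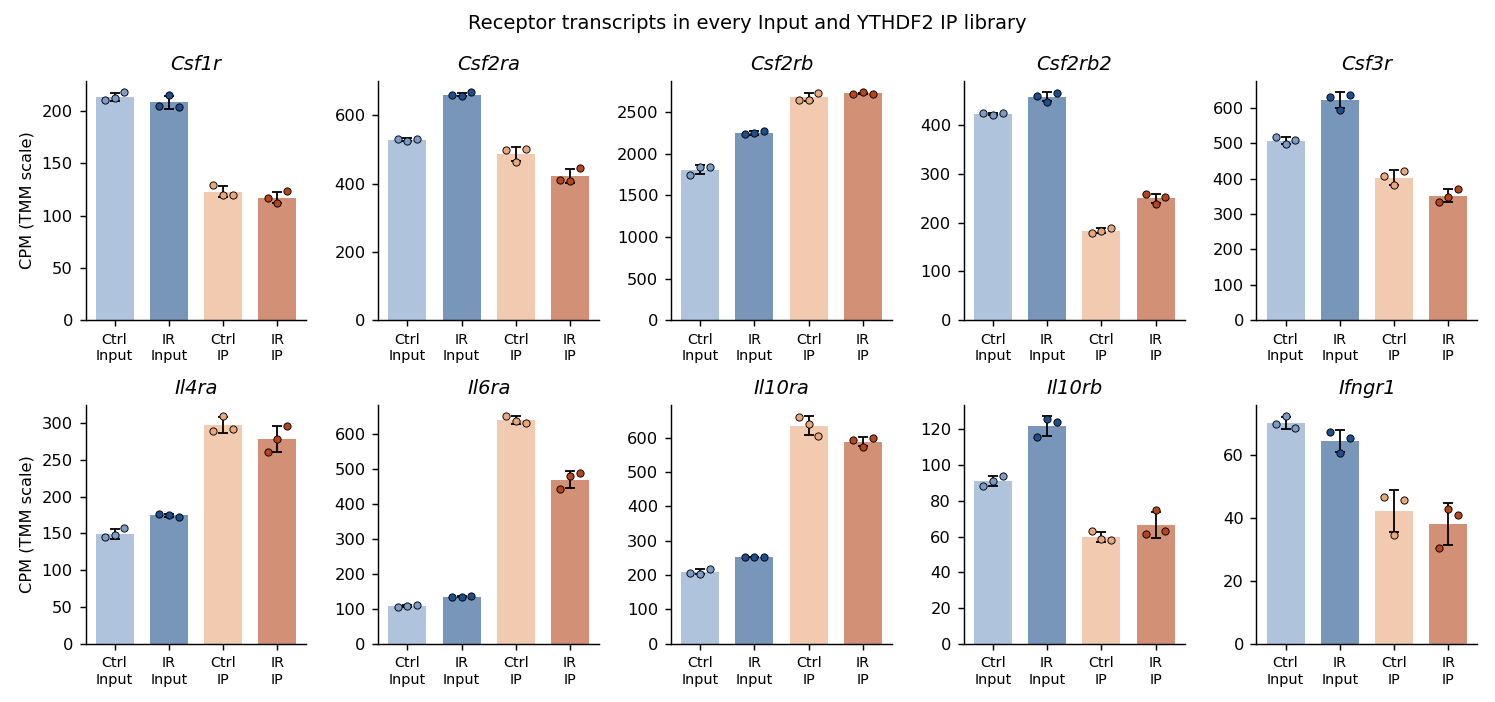
TMM-normalized CPM (y axis, linear, from 0, a scale of its own for each gene) of the 10 receptor genes in the 4 groups of libraries. Bars are means, error bars SD and points the 3 pools. Il6ra, Il10ra, Il4ra and Csf2rb stand higher in both IP groups than in the Inputs, and Csf2rb2, Csf1r, Csf3r, Il10rb and Ifngr1 lower.

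To assess which receptor transcripts YTHDF2 held in unirradiated tumors, IP was compared with Input in Ctrl. *Il6ra*, *Il10ra*, *Il4ra* and *Csf2rb* were higher in the IP, and 5 members were lower. Of all 17416 genes tested, 34.1% were higher and 34.6% lower (68.7% in either direction), so 4 and 5 of 10 members stand close to these shares. The median log2 fold change was -0.15 for the members and 0.018 for all genes.

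*Il6ra* encodes the ligand-binding α chain of the IL-6 receptor. It had 104, 109 and 110 CPM in the Inputs of Ctrl and 651, 638 and 630 CPM in the IPs. The IP was 6.26-fold higher (log2 fold change 2.65, standard error 0.040, adjusted p = 1.37e-18 by edgeR), and 4.3% of all tested genes had a larger log2 fold change. *Il10ra*, the ligand-binding chain for IL-10, went from 207, 204 and 219 CPM to 661, 638 and 606, a 3.19-fold difference. *Il4ra*, the α chain shared by the receptors for IL-4 and IL-13, went from 145, 147 and 157 CPM to 290, 310 and 292 (2.09-fold). In each of these genes the lowest IP library was above the highest Input library. *Csf2rb* was 1.56-fold higher, with 1751, 1842 and 1842 CPM in the Inputs and 2652, 2653 and 2737 in the IPs.

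The lowest binding intensity among the members was that of *Csf2rb2*, the mouse paralog of *Csf2rb* that encodes a β chain specific to IL-3. It had 424, 420 and 425 CPM in the Ctrl Inputs and 178, 184 and 188 in the IPs, 2.19-fold lower in the IP (log2 fold change -1.13, standard error 0.040). *Csf1r* had 211, 213 and 218 CPM in the Inputs and 129, 120 and 120 in the IPs, 1.65-fold lower. *Ifngr1*, which encodes the ligand-binding chain for IFN-γ, had 69.8, 72.4 and 68.5 CPM in the Inputs and 46.8, 34.6 and 45.6 in the IPs, 1.58-fold lower. Groups of libraries did not overlap in these 3 genes, although the IPs of *Ifngr1* spread most for their level. *Il10rb*, the second chain of the IL-10 receptor that other class II receptors share, was 1.44-fold lower in the IP, and *Csf3r*, the G-CSF receptor of neutrophils, was at 0.836 of its Input. *Csf2ra* had 532, 524 and 531 CPM in the Inputs and 497, 465 and 503 in the IPs, and its log2 fold change of -0.04 (standard error 0.038, adjusted p = 0.368) was not called. Its CPM ranges were apart all the same, and it was called lower with library size only (-0.22), without the filter (-0.15) and with all 12 libraries in one fit (-0.11). The 2 chains of the IL-10 receptor thus stood on opposite sides, and *Il10rb* reads were 0.434 ± 0.011 of those of *Il10ra* in the Ctrl Inputs (CPM ratio, SD, n = 3) and 0.0944 ± 0.0020 in the Ctrl IPs.

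**Figure D2:**
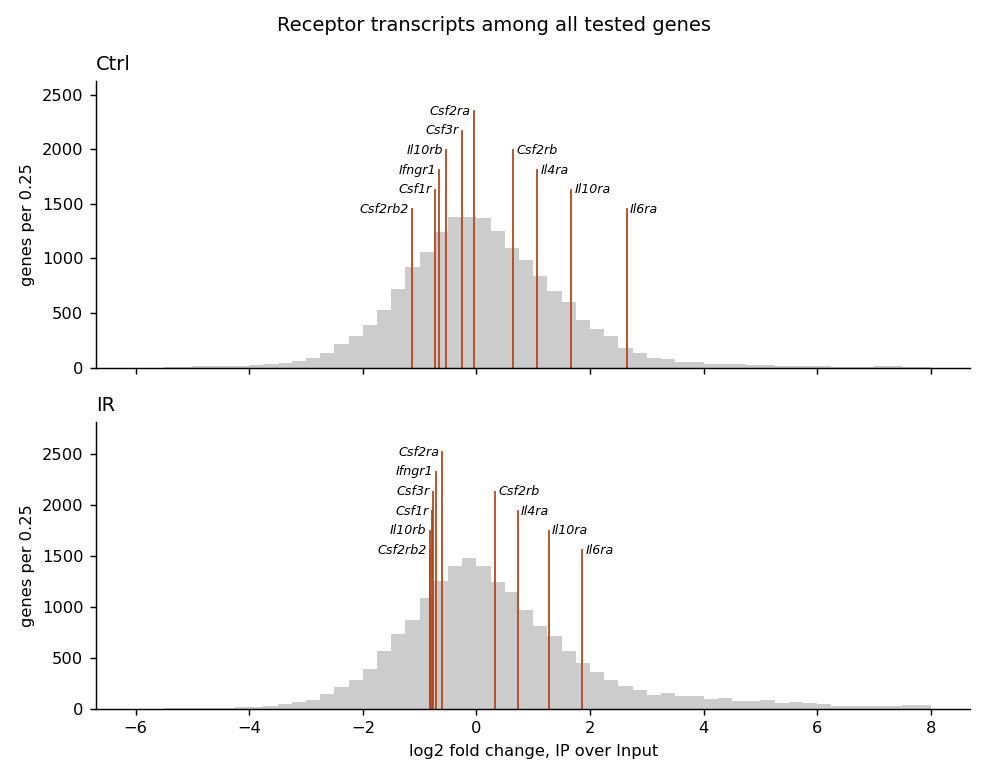
Distribution across all tested genes of the log2 fold change of IP against Input, for Ctrl (top) and IR (bottom). Grey bars count genes in steps of 0.25 and red lines mark the receptor genes, the height of a line having no meaning. Il6ra lies in the upper tail in Ctrl and closer to the centre in IR. 27 genes in Ctrl and 133 in IR lie beyond the drawn range of -6 to 8.

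m6A is deposited mainly at adenosines in a short consensus, of which GGACT is the best known form. The sense strand of the representative mRNA of each gene (the protein-coding transcript with the longest coding sequence, from the GENCODE M21 transcripts of mm10) was searched for GGACT. The motif is common, since 86.8% of 21767 mRNAs held at least 1 copy, with a median of 1.01 copies per kilobase. The members held 0.862 (*Csf3r*) to 1.79 (*Il6ra*) copies per kilobase. *Il6ra* (chromosome 3, 89864059 to 89913196, minus strand) held 6 copies, 3 in the coding sequence and 3 in the 3′ UTR. They are shown because *Il6ra* had the highest binding intensity of the members, with the motif in capitals and 8 flanking bases on either side. These positions are counted from the first base of the mRNA. Only its 3343 bases were searched, while the merged exons of *Il6ra* hold 8642 bases.
Il6ra coding, position 332: cagagaatGGACTaccacagg
Il6ra coding, position 387: gacactggGGACTatttatgc
Il6ra coding, position 422: cctggtggGGACTgtgccctt
Il6ra 3′ UTR, position 2111: cgatctcaGGACTtcaggcga
Il6ra 3′ UTR, position 2308: tttcaactGGACTggagctac
Il6ra 3′ UTR, position 3283: agtttttgGGACTcaagggta

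*Il10ra* (chromosome 9, 45253837 to 45269149, minus strand), with the next highest binding intensity, held 2 copies in the coding sequence and 4 in the 3′ UTR, of which those of the 3′ UTR are given.
Il10ra 3′ UTR, position 2361: ggcaaaagGGACTgagaccca
Il10ra 3′ UTR, position 2592: caggcttaGGACTtatgtctg
Il10ra 3′ UTR, position 2704: tcctcaggGGACTaaaataat
Il10ra 3′ UTR, position 2813: aaggaagtGGACTacggaagc

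*Il4ra* (chromosome 7, 125552120 to 125579474, plus strand) held 9 copies, 3 each in the 5′ UTR, coding sequence and 3′ UTR, and a pair of those in the 3′ UTR lay 6 bases apart.
Il4ra 3′ UTR, position 3332: aacagccaGGACTgggactag
Il4ra 3′ UTR, position 3338: caggactgGGACTagaggcag
Il4ra 3′ UTR, position 4339: catgatggGGACTggtgtgca

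By copies per kilobase, *Il6ra* (1.79), *Il10ra* (1.715) and *Il4ra* (1.712) were the highest of the members, in the order of their binding intensity, followed by *Csf1r* (1.702), which was lower in the IP. The number of copies did not order the members. *Csf1r* held 8 copies and *Csf2rb* and *Csf2rb2* 7 each, and *Csf1r* and *Csf2rb2* were lower in the IP. *Csf2ra*, *Csf3r*, *Il10rb* and *Ifngr1* held 3 copies each, and none of these was higher in the IP. Among all tested genes with a representative mRNA, the median of log2 IP/Input in Ctrl was -0.69 for the 1128 genes with no copy and 0.53 for the 495 genes with over 10 copies. Genes with 3 to 5 copies had a median of -0.06 and genes with 6 to 10 copies of 0.17, with quartiles of -0.43 and 0.92 for the latter. A longer mRNA can hold more copies, and whether copies per kilobase relate to binding across all genes was not tested. A copy of the motif is not a methylated site, and methylation was not analysed here.

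The 3 members with the highest binding intensity had the largest shares of 3′ UTR in their representative mRNA. These were 55.0% of 3343 bases in *Il6ra*, 48.5% of 3498 in *Il10ra* and 46.1% of 5256 in *Il4ra*. The merged exons of *Il6ra* hold 8642 bases, and which of its transcripts was present was not tested. *Csf3r* had 17.4% of 3481 bases and *Ifngr1* 25.8% of 2112. This does not hold throughout, since *Csf2rb* (37.1%) and *Csf2rb2* (38.2%) had nearly the same share and lay on opposite sides. Across all tested genes with a representative mRNA, the length of the 3′ UTR was used, not its share. The median log2 fold change was -0.18 for up to 500 bases and -0.15 for the next step up to 1000. It was -0.18 for that up to 2000 and 0.09 for over 2000 bases. No trend with length was seen below 2000 bases, where *Il6ra* (1840) and *Il10ra* (1696) lie. Whether the share relates to binding across all genes was not tested.

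The same comparison in IR called 4 members higher and 6 lower in the IP, where 32.1% of the 18650 genes tested there were higher and 30.4% lower (62.6% in either direction). The members higher in the IP were *Il6ra*, *Il10ra*, *Il4ra* and *Csf2rb*, as in Ctrl, and *Csf2ra* was now called lower. The median log2 fold change was -0.65 for the members and 0.10 for all genes. *Il6ra* had 133, 134 and 136 CPM in the IR Inputs and 442, 479 and 488 CPM in the IPs, a 3.63-fold difference. *Il10ra* (2.41-fold), *Il4ra* (1.65-fold) and *Csf2rb* (1.26-fold) kept their order below it. *Il6ra* stood lower among all genes in IR than in Ctrl, since 15.2% of the genes tested in IR had a larger log2 fold change. At the other end, *Csf2rb2*, *Il10rb*, *Csf1r*, *Csf3r*, *Ifngr1* and *Csf2ra* were 1.51- to 1.77-fold lower in the IP.

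The change of binding intensity between IR and Ctrl was tested as an interaction over all 12 libraries. Binding intensity fell at 6 members, *Il6ra*, *Csf2ra*, *Csf3r*, *Il10ra*, *Il4ra* and *Csf2rb*, and rose at *Csf2rb2*. Of all 20720 genes tested, 13.9% were lower and 6.28% higher in IR (20.2% in either direction), and the median change was -0.083 for all genes and -0.30 for the members. At *Il6ra*, *Il10ra*, *Il4ra*, *Csf2rb* and *Csf2rb2* IP and Input came closer together in IR, and at *Csf2ra* and *Csf3r* they moved apart. The IR IPs had the most reads on no gene, 51.4% against 42.3% in the Ctrl IPs, and their replicates differed most from each other. Whether this bears on the change was not tested. The counts of called members and genes also depend on how libraries are scaled. With library size only, 2 members were higher and 3 lower, the share of called genes that were higher was 76.5% in place of 31.1%, and the median of all genes moved up by 0.31. Relative to the median of all genes, the members moved by at most 0.0021 between both scalings. A change of scaling moves all genes nearly alike, so this was fixed in advance and does not test the calls.

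The ratio of IP to Input in each pool, matched by replicate number, shows the same pattern. It comes from the same 12 libraries as the test and is not separate evidence. For *Il6ra* the log2 ratio of CPM values was 2.65, 2.55 and 2.52 in the Ctrl pools and 1.73, 1.84 and 1.84 in the IR pools. Its change in the test was -0.77 (standard error 0.062, adjusted p = 2.13e-08), or -0.68 relative to the median of all genes. For *Csf2ra* the log2 ratio was -0.10, -0.17 and -0.08 in Ctrl and -0.69, -0.69 and -0.59 in IR. Its change was -0.54 (standard error 0.058) and -0.45 relative to the median of all genes. In both genes every IR pool lay below every Ctrl pool.

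*Csf3r* went from log2 ratios of -0.35, -0.38 and -0.27 in Ctrl to -0.92, -0.77 and -0.78 in IR, a change of -0.49 (standard error 0.065). *Il10ra* went from 1.68, 1.64 and 1.47 to 1.23, 1.18 and 1.24 (-0.38, standard error 0.058), and *Csf2rb* from 0.60, 0.53 and 0.57 to 0.28, 0.29 and 0.26 (-0.29, standard error 0.038). The pools of Ctrl and IR were apart in these 3 genes. *Il4ra* went from between 0.90 and 1.07 to 0.56, 0.67 and 0.78, a change of -0.32 (standard error 0.073). The call for *Il4ra* was lost without pool 2 of the Ctrl IPs, where the change was -0.22, and those for *Il4ra* (-0.0065) and *Il10ra* (-0.068) with library size only. *Csf2rb2* went the other way, from -1.25, -1.19 and -1.18 in Ctrl to -0.83, -0.91 and -0.89 in IR, a change of 0.33 (standard error 0.058, adjusted p = 3.24e-04).

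No change was called for the remaining 3 members. *Csf1r* had log2 ratios of -0.71, -0.83 and -0.86 in Ctrl and -0.82, -0.94 and -0.73 in IR, so the pools overlapped, and its change was -0.03 (standard error 0.072). *Ifngr1* had the widest spread, from -1.06 to -0.58 in Ctrl and from -1.15 to -0.50 in IR, which limits what could be detected at this gene (change -0.03, standard error 0.16). The sign of both changes turned under several alternatives, and with library size only *Csf1r* was called higher (0.28, adjusted p = 0.00952). *Il10rb* had log2 ratios of -0.48 to -0.70 in Ctrl and -0.75 to -0.98 in IR, and its change of -0.27 missed the threshold (adjusted p = 0.0786), though it was called without pool 2 of the IR IPs (-0.35).

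**Figure D3:**
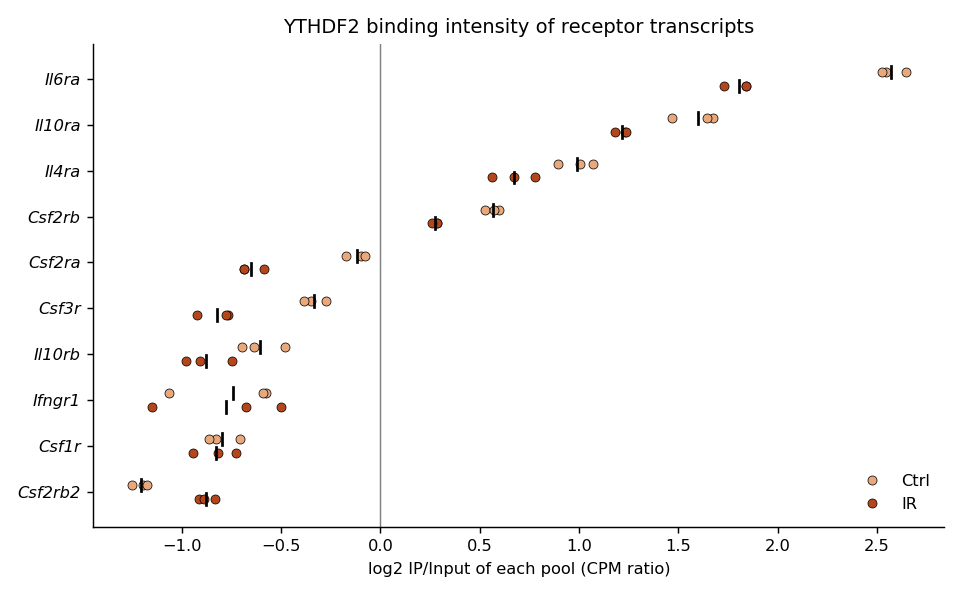
Binding intensity of the receptor genes, the log2 ratio of IP to Input CPM in each pool (x axis), for the 3 Ctrl pools (light) and the 3 IR pools (dark), with the mean of each as a vertical bar. Dark points lie to the left of light points for Il6ra, Il10ra, Il4ra, Csf2rb, Csf2ra, Csf3r and Il10rb, to the right for Csf2rb2, and among them for Csf1r and Ifngr1.

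Transcript abundance was compared between IR and Ctrl in the Inputs. It rose at 7 members, *Il10rb*, *Csf2ra*, *Il6ra*, *Csf2rb*, *Csf3r*, *Il10ra* and *Il4ra*, and fell at *Ifngr1* and *Csf1r*. Of all 16914 genes tested, 21.0% were higher and 23.9% lower in IR (45.0% in either direction), and the median log2 fold change was 0.20 for the members and 0.0072 for all genes. The largest difference among the members was that of *Il10rb*.

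*Il10rb* rose from 88.1, 91.3 and 93.8 CPM to 116, 126 and 124, a log2 fold change of 0.34 (standard error 0.041). *Csf2ra* rose from 532, 524 and 531 CPM to 659, 657 and 668 (0.24, standard error 0.028), *Csf2rb* from 1751, 1842 and 1842 to 2237, 2248 and 2276 (0.24, standard error 0.025) and *Csf3r* from 516, 497 and 509 to 631, 595 and 636 (0.21, standard error 0.031). *Il6ra* (0.24), *Il10ra* (0.19) and *Il4ra* (0.14) rose as well, and in all 7 genes the lowest IR Input was above the highest Ctrl Input. *Csf2rb2* had 424, 420 and 425 CPM in Ctrl and 460, 449 and 467 in IR, and its log2 fold change of 0.04 (standard error 0.030, adjusted p = 0.345) was not called. Its CPM ranges were apart, since the CPM scale of all 12 libraries sets IR Inputs higher than the test does.

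The calls of the 2 genes that fell were the least stable. *Csf1r* had 211, 213 and 218 CPM in Ctrl and 205, 215 and 204 in IR, and the ranges overlapped on this scale, with a log2 fold change of -0.12 (standard error 0.034, adjusted p = 0.00646) in the test. *Ifngr1* had 69.8, 72.4 and 68.5 CPM in Ctrl and 67.4, 60.8 and 65.3 in IR (-0.20, standard error 0.047). Neither was called with all 12 libraries in one fit, where *Csf1r* was at -0.04 and *Ifngr1* at -0.12, and *Csf1r* was not called without pool 3 of the IR Inputs (-0.10). In that fit 63.6% of all called genes were higher in IR, against 46.8% with the Inputs alone.

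The ratio of *Csf3r* to *Csf1r* reads was 2.37 ± 0.068 in the Ctrl Inputs (CPM ratio, SD, n = 3) and 2.99 ± 0.20 in the IR Inputs. The summed level of 10 neutrophil markers was 10313 to 11005 CPM in the Ctrl Inputs and 13262 to 13828 in the IR Inputs, with 6 of 10 higher and 1 lower in IR. That of 10 monocyte and macrophage markers was 643 to 671 CPM and 687 to 723, with 7 higher and 3 lower. Of all genes tested in the Inputs, 21.0% were higher and 23.9% lower in IR. The monocyte and macrophage list was mixed, since *Ccr2* rose from a mean of 201 to 234 CPM and *Mrc1* fell from 124 to 95.0. Dendritic cell markers summed to 232 to 234 CPM and 263 to 268, and T, B and NK cell markers to 11.9 to 12.3 and 19.1 to 23.2 CPM, with *Ncr1* at 0 in the IR Inputs. Tumor, stromal and endothelial markers summed to 35.5 to 37.6 CPM and 35.7 to 37.6, with *Krt8* at 0 in the IR Inputs. *Itgam* itself stood at 1719 ± 23.5 CPM in the IR Inputs (SD, n = 3). These levels moved with IR beside those of the receptors, and their part in the result was not tested. In sorted bulk cells, fewer cells of a type and less RNA per cell cannot be told apart.

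**Figure D4:**
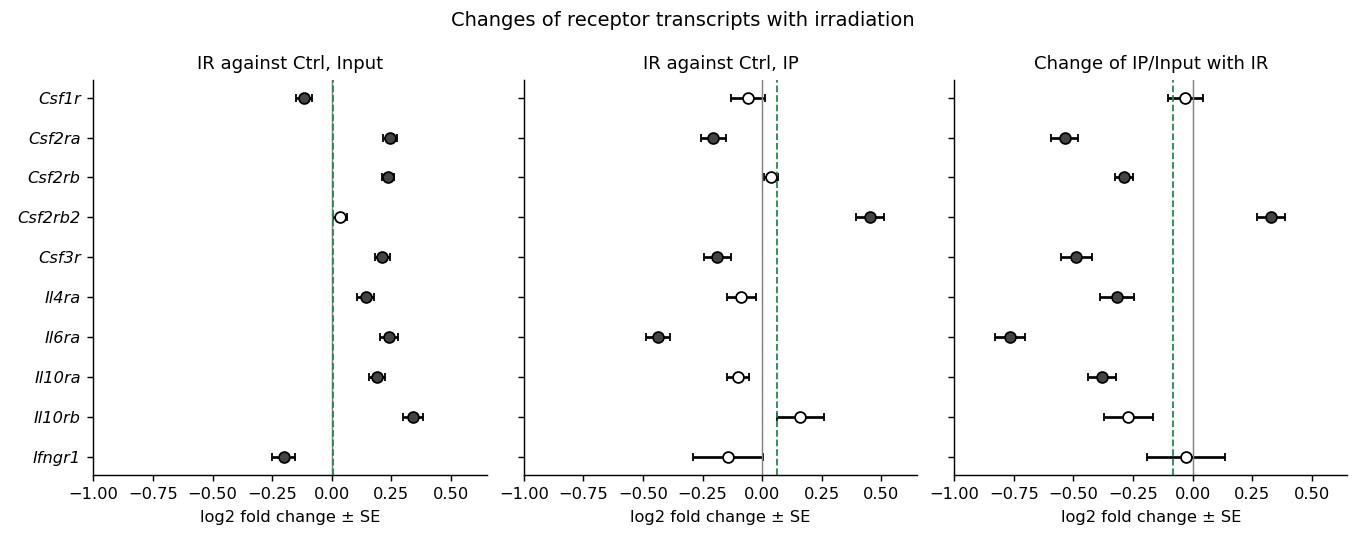
Log2 fold change with its standard error (x axis) of each receptor gene for IR against Ctrl in the Input (left), in the IP (middle) and for the change of the IP to Input ratio (right). Filled points are called at an adjusted p-value under 0.05, open points are not, and the dashed line is the median of all genes. Il6ra, Csf2ra and Csf3r are higher in the Input and lower in the IP, and Csf2rb2 is higher in the IP with no call in the Input.

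In the IP, the RNA held by YTHDF2, 3 members were lower in IR and 1 was higher, where 9.85% of 19255 tested genes were lower and 6.12% higher (16.0% in either direction). The median was -0.094 for the members and 0.062 for all genes. *Il6ra* fell by 0.44 on the log2 scale (standard error 0.049), from 651, 638 and 630 CPM to 442, 479 and 488. *Csf2ra* fell by 0.20, from 497, 465 and 503 CPM to 410, 408 and 445, and *Csf3r* fell by 0.19, from 406, 381 and 421 to 333, 349 and 371. In all 3 genes the IP moved against the Input. *Csf2rb2* rose by 0.45 (standard error 0.059), from 178, 184 and 188 CPM to 258, 239 and 252.

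The calls of *Csf2ra* and *Csf3r* in the IP were lost when pool 1 or 3 of the Ctrl IPs or pool 2 of the IR IPs was left out, which left 1 member lower. *Csf3r* was also lost without pool 1 of the IR IPs and with 10 counts required in every library (-0.14 in both cases). *Csf2rb* showed little difference in the IP, with 2652, 2653 and 2737 CPM in Ctrl and 2725, 2741 and 2722 in IR (log2 fold change 0.04, standard error 0.029). *Il10ra*, *Il4ra*, *Csf1r*, *Il10rb* and *Ifngr1* had log2 fold changes between -0.14 and 0.16, none of them called. With library size only, 3 members were higher and 1 lower, 76.3% of called genes were higher against 38.3%, and the median of all genes moved up by 0.21. Relative to that median *Il6ra* stood at -0.50 and *Csf2rb2* at 0.39 under both scalings, which follows from the shared shift and does not test the calls.

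*Csf2rb* (chromosome 15, 78325752 to 78353847, plus strand) and *Csf2rb2* (chromosome 15, 78282507 to 78305721, minus strand) are neighbours and close copies, and yet their binding intensities in Ctrl lay on opposite sides. Their coding sequences were 92.9% identical over 2694 aligned columns, with 125 substitutions and 66 gap columns, and their 3′ UTRs 74.9% identical. The longest run without a difference was 242 bases. The coding stretches below, each 90 bases long, are shown because reads are told apart only where the copies differ, and capitals mark the 16 bases that differ in the most different stretch. Positions are counted from the first base of the coding sequence.
Csf2rb coding, 308 to 397: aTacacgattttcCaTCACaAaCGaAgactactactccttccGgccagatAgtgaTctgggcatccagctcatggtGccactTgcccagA
Csf2rb2 coding, 311 to 400: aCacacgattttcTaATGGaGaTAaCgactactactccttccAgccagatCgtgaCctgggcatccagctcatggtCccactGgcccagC

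In other stretches the copies hold the same bases. The first such stretch of 90 bases lies at 662 to 751 in *Csf2rb* and at 665 to 754 in *Csf2rb2*.
Csf2rb and Csf2rb2 coding: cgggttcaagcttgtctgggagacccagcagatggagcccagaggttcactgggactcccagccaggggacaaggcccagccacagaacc

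Of all windows of 100 bases in the *Csf2rb* mRNA, 6.96% occurred unchanged in *Csf2rb2*, and 7.20% of those of *Csf2rb2* in *Csf2rb*. For most of their length a read could thus be assigned, but reads with errors or from the shared part leave the split between the copies uncertain. *Csf2rb* had 4.28 ± 0.14 times the reads of *Csf2rb2* in the Ctrl Inputs (CPM ratio, SD, n = 3) and 14.6 ± 0.22 times in the Ctrl IPs. In IR the ratio was 4.92 ± 0.080 in the Inputs and 10.9 ± 0.48 in the IPs. The ratios of the 4 groups did not overlap. With both genes summed, IP differed from Input by 0.43 in Ctrl and 0.19 in IR on the log2 scale, binding intensity changed by -0.22 (adjusted p = 1.20e-04), and no member was left that was higher in IR, in binding intensity or in the IP.

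**Figure D5:**
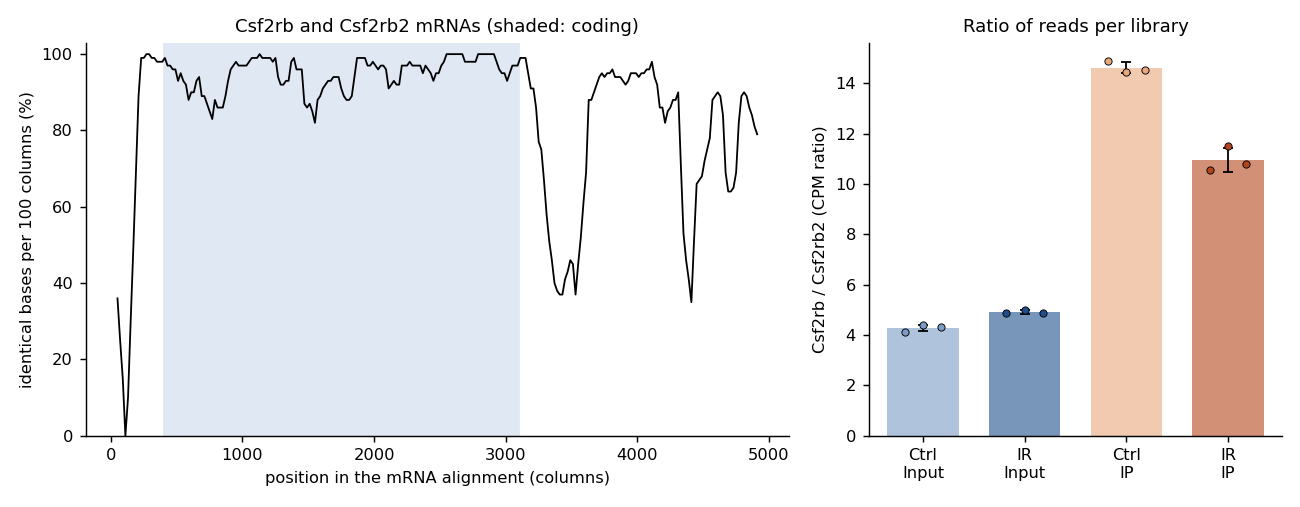
Left, percentage of identical bases in windows of 100 columns along the alignment of the Csf2rb and Csf2rb2 mRNAs (x axis, alignment column), with the coding part shaded. Right, ratio of Csf2rb to Csf2rb2 CPM, bars being means, error bars SD and points the 3 pools of each group. Identity in the windows is at least 82% through the coding part and drops in places of the 3′ UTR, and the ratio is highest in the Ctrl IPs.

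Other members also share exonic bases with neighbouring genes. *Il10rb* (chromosome 16, 91406164 to 91425834, plus strand) shares 569 exonic bases with *Gm21970* on the same strand, and 27.0% of the windows of 100 bases in its mRNA occur in that gene, so its counts are uncertain to that degree. On the opposite strand, *Csf1r* shares 15.1% of its exonic bases with *Hmgxb3*, *Il4ra* 9.51% with *Gm44876* and *Il6ra* 2.8% with *Gm42809*, which reads counted without strand could not tell apart. *Csf2ra* lies on chromosome 19 (61223957 to 61228429, minus strand), *Csf3r* on chromosome 4 (126024550 to 126044440, plus strand) and *Ifngr1* on chromosome 10 (19591949 to 19610229, plus strand). None of these shares exonic bases with another annotated gene, and 0.414% of the windows of the *Csf3r* mRNA occurred elsewhere.

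The other genes of the pathway were taken from lists of ligands, partner chains, further cytokine and growth factor receptors, signalling proteins and feedback inhibitors. Of 11 ligands, 8 did not pass the filter, *Csf2* and *Csf3* among them, with at most 3 counts of *Csf2* and at most 22 of *Csf3* in any library. In the Inputs *Csf1*, which encodes M-CSF, had 52.8 ± 1.42 CPM in Ctrl (SD, n = 3) and 87.3 ± 4.84 after IR, a log2 fold change of 0.64 (standard error 0.047). It was higher in the IP than in the Input in Ctrl (0.92) and IR (0.45), and its binding intensity fell by 0.44. Its receptor *Csf1r* was lower in the IP in both conditions, as given above. *Il6* fell by 0.97 in the Input from 3.55 ± 1.36 to 1.91 ± 0.47 CPM, and was lower in the IP in Ctrl (-1.83).

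Of 8 partner chains, 6 were tested in Ctrl, of which 4 were higher and 2 lower in the IP, beside 34.1% and 34.6% of all genes. *Il6st*, which encodes gp130, the signalling chain that pairs with IL-6Rα, was higher in the IP in Ctrl (1.06, standard error 0.049) and in IR (0.97, standard error 0.068), as *Il6ra* was. *Ifngr2* and *Il2rg* were lower in the IP in IR (-0.65 and -0.85), and their binding intensity fell by 0.33 and 0.47. *Il2rg* is the common γ chain, with which IL-4Rα pairs. For binding intensity 0 of 7 partner chains rose and 3 fell, beside 6.28% and 13.9% of all genes. In the Input 3 of 7 partner chains rose and 2 fell, beside 21.0% and 23.9%.

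Of 24 other receptors, 20 were tested in Ctrl, with 8 higher and 6 lower in the IP, near the shares of all genes (34.1% and 34.6%). *Il7r* (2.57), *Il20rb* (2.19) and *Il2ra* (1.98) had the largest log2 fold changes of this list, against 2.65 for *Il6ra*. Binding intensity fell at 7 and rose at 1 of the 24, beside 13.9% and 6.28% of all genes. That of *Il21r* fell by 0.72 and that of *Ifnar2* by 0.73. In the IP itself *Il21r* rose (0.35), by less than in the Input. Binding intensity of *Lifr* rose by 1.65 (standard error 0.46), a gene with few counts (53 to 188 in the Ctrl IPs). Part of this was a fall of *Lifr* in the Input, from 4.55 ± 0.91 to 2.24 ± 0.46 CPM. Its IPs had 3.78 ± 2.06 CPM in Ctrl and 5.85 ± 0.61 in IR, with no change called. In the Input 5 of 20 rose, with *Il21r* (0.98), and 5 fell, with *Lifr* (-1.10) and *Kit* (-0.48), near the shares of all genes (21.0% and 23.9%).

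Of 12 signalling proteins, 10 were lower and 2 higher in the IP in Ctrl, beside 34.6% and 34.1% of all genes, and the median log2 fold change was -0.50, against 0.018 for all genes. In IR 10 were lower and 1 was higher, beside 30.4% and 32.1% of all genes. *Jak2*, the kinase that the GM-CSF receptor uses, was lower in both (-0.55 and -0.66), with no change called in binding intensity, Input or IP. *Stat5a* (-1.23) and *Stat5b* (-0.71), the transcription factors downstream of it, were lower in Ctrl. The 8 feedback inhibitors were CISH and the SOCS proteins, a family of which some members switch off JAK signalling. Of these 8, 5 were higher and 2 lower in the IP in Ctrl, beside 34.1% and 34.6% of all genes. *Socs4* (1.60) and *Socs7* (1.36) were highest and *Socs3* was lower (-0.56). In the Input 5 of 8 rose and 0 fell in IR, beside 21.0% and 23.9% of all genes, with *Socs1* at 0.38, *Socs2* and *Cish* both at 0.28 and *Socs3* at 0.15. Binding intensity fell at *Socs2* (-0.42), *Socs4* (-0.37) and *Cish* (-0.21).

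*Ythdf2*, the gene of the precipitated protein, had Input levels of 58.0 ± 0.47 CPM (SD, n = 3) in Ctrl and 51.5 ± 3.81 after IR, with a log2 fold change of -0.25 (standard error 0.052). Its log2 ratio of IP to Input was 0.67, 0.68 and 0.65 in the Ctrl pools and 0.30, 0.72 and 0.28 in the IR pools, which overlapped.

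The genes whose CPM followed a member most closely over the 12 libraries were sought among 10576 genes, by Pearson's correlation. *Emsy* was most like *Il6ra* (r = 0.999), *Tbcel* most like *Il10ra* (0.998) and *AI987944* most like *Il4ra* (0.997). *Snx5* was most like *Csf1r* (0.997), *March5* most like *Csf2rb2* (0.995) and *Abcd4* most like *Csf2rb* (0.993). *Psme2* was most like *Csf2ra* (0.981) and *Tmem234* most like *Csf3r* (0.991), while *Ptpro* was most like *Il10rb* (0.994) and *Dcps* most like *Ifngr1* (0.988). All values come from the same 4 groups of libraries, so they mostly describe the pattern across groups and are given without a test.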

How the data were processed

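CD11b+ cells from Ctrl and IR tumors gave 12 RIP-seq libraries, an Input and a YTHDF2 IP for each of 3 pools per condition. Per the submitters' notes and methods, reads were trimmed (Trimmomatic 0.39), aligned to mm10 (HISAT) and counted on GENCODE M19 genes (HTSeq), and the authors deposited these raw counts. The strand option of the counting and any removal of duplicates are not given in the sources used here. The anti-YTHDF2 antibody is from Abcam in the labels and from Aviva in the paper's methods, and the labels speak of mRNA where the methods use a total RNA kit. Reads that fell on no gene, 27.0% (Ctrl Input), 24.7% (IR Input), 42.3% (Ctrl IP) and 51.4% (IR IP), stayed out of library sizes and tests.

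Identifiers were matched to GENCODE M21 of the same build (99.9% of 54446). The filter asked for 10 counts or more in 3 or more of the compared libraries, and the genes left were tested with TMM and edgeR 4.0.16 (R 4.3.3), with Benjamini-Hochberg adjustment over all genes tested and a threshold of 0.05. IP was compared with Input in Ctrl and in IR, IR with Ctrl in Input and in IP, and the change of IP over Input by an interaction. The steps were tested on simulated data, with changes planted equally in both directions and most genes unchanged. The planted changes were larger than those of the members between IR and Ctrl. The simulation therefore does not test small changes or shifts shared by many genes. A shift of binding shared by most genes cannot be seen with TMM, which centres on genes that stay the same. Levels per kilobase use the merged exons of a gene. Sequences came from the GENCODE M21 transcripts.

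IP and Input of the same number come from the same lysate by the study's methods and were tried as a replicate block. Their deviations correlated by -0.023, 0.029 and -0.012 in Ctrl and by -0.0078, 0.040 and 0.0055 in IR. Those of different numbers correlated by -0.037 to 0.045 in Ctrl and by -0.035 to 0.030 in IR. The counts thus do not show the pairing, which rests on the labels and methods. Pools of Ctrl and IR that share a number are from different mice. Replicates of each group differed by more than counting noise, and intervals between libraries may understate the variation between mice. Relative to counting noise, the mean squared difference between a pair of replicates was 18.7 to 23.8 in the IR IPs. It was 9.29 to 10.9 in the Ctrl IPs and 3.66 to 7.15 in the Inputs.

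All 10 members are named, with *Ythdf2*, and from each list the genes past the threshold with the largest log2 fold changes (at most 4), with *Jak2*, *Socs3*, *Csf1*, *Csf2* and *Csf3* in any case. The members, lists and tests were chosen with earlier results of these data known. Alternatives were DESeq2 1.42.0, its size factors, library size only, no filter or 10 counts in every library, protein-coding nuclear genes only, the replicate block, a fit over all 12 libraries, both *Csf2rb* genes summed, and each replicate left out in turn.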

Additional observations from a re-analysis of the deposited data

Results flagged for a closer look

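The change of binding intensity between Ctrl and IR, tested as an interaction over all 12 libraries, was past the threshold at 7 of 10 receptor genes, so the effect of the IP differed between the conditions. It was -0.77 at *Il6ra*, -0.54 at *Csf2ra*, -0.49 at *Csf3r*, -0.38 at *Il10ra*, -0.32 at *Il4ra* and -0.29 at *Csf2rb*, and 0.33 at *Csf2rb2*. Of all genes tested 20.2% were called in either direction. The IR IPs were the group whose replicates differed most, and the part of this in the change was not tested. *Csf2ra*, *Csf3r* and *Il6ra* rose in the Input and fell in the IP, and *Csf2rb*, *Il10ra* and *Il4ra* rose in the Input with no call in the IP. *Csf2rb2* rose in the IP with no call in the Input.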

How the results depend on the processing

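Over the alternatives named above, 755 values of single receptor genes were computed. Of these, 706 kept their direction and their side of the threshold, 14 lost the call, 6 gained it with the same direction and 29 changed sign. Under library size only the change of binding at *Csf1r* changed sign and was called higher. The sign changes were at genes without a call except *Csf2rb* (change of binding) and *Csf2ra* and *Csf3r* (IP) under library size only. The replicate block changed no call of a member.

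With library size only, the change of binding was 0.28 at *Ifngr1* and *Csf1r*, 0.042 at *Il10rb* and 0.024 at *Csf2rb*, with 2 members higher and 3 lower. Under it IR against Ctrl in the IP was 0.061 at *Ifngr1*, 0.15 at *Csf1r*, 0.018 at *Csf3r*, 0.12 at *Il4ra*, 0.10 at *Il10ra* and 0.0010 at *Csf2ra*, with 3 members higher and 1 lower. It shifts all genes alike, as given in the report. The change of binding at *Ifngr1* and *Csf1r* was 0.029 and 0.028 with DESeq2's size factors, 0.028 and 0.028 with its test, 0.080 and 0.080 with 10 counts in every library, and 0.050 and 0.048 with protein-coding genes, under which *Csf2ra* in Ctrl was at 0.058. With both *Csf2rb* genes summed, 0 members were higher in binding or in the IP, since *Csf2rb2* was then not tested alone. With all 12 libraries in one fit, 0 members were lower in the IR Input, and the cause was not tested.

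With each replicate left out in turn, *Csf2ra* in Ctrl ranged from -0.071 to 0.031, the change of binding from -0.11 to 0.13 at *Ifngr1* and from -0.045 to 0.065 at *Csf1r*, and the change of *Ifngr1* in the IP from -0.26 to 0.0078. The number of members lower in IR ranged from 1 to 2 in the Input and from 1 to 3 in the IP. With 3 pools per group, small changes of members with few counts, such as *Ifngr1*, may go undetected.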
